A study of Sus scrofa with 4 samples.

Results

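Collagen chains, fibrillin 1 and small leucine-rich proteoglycans were followed in infarcted minipig hearts with and without a graft of human myoblasts. The list held 10 genes: COL1A2, COL3A1, COL4A1, COL5A2, COL6A3, COL14A1, FBN1, DCN, LUM and BGN. Every probe set (a group of short probes for 1 transcript) that carried 1 of these symbols alone in the array's annotation was taken. This gave 12 of the 24123 probe sets for 8 of the 10 genes, since COL4A1 and COL14A1 had no such probe set and were skipped.

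These genes encode much of the scaffold of heart muscle and of the scar that replaces it after myocardial infarction (MI). Fibroblasts secrete collagen chains that fold into triple helices, and collagens I, III and V assemble into fibrils while collagen VI forms beaded filaments around cells. Decorin, lumican and biglycan are small proteoglycans that bind collagen and influence how fibrils form, and fibrillin 1 builds the microfibrils on which elastic fibres are laid and latent TGF-β is stored.

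Heart tissue was measured on 4 Affymetrix Porcine Genome Arrays, with 1 array for each zone (infarct and its border) of myoblast-treated hearts and 1 for each zone of control hearts. All hearts were infarcted, and per the study's methods the animals were 4-month-old female Chinese Bama minipigs whose left circumflex coronary artery had been tied permanently. Human myoblasts in DMEM, a culture medium, were injected into the heart muscle of the myoblast group, whereas the control treatment group of the methods received DMEM alone. The injections were placed in the prospective border zone of the infarct, so zone and site of injection cannot be told apart here. Both groups received cyclosporin A, an immunosuppressant. By its label the control tissue was untreated, whereas the paper sets the myoblast arrays against its control treatment group, and the control arrays are taken here as that group. The methods also describe an MI group with neither injection nor cyclosporin A. The number of minipigs behind an array and the time of sampling were not given, and the zones of a treatment may come from the same heart. The array carries probes for pig transcripts, and signals of pig and human RNA cannot be told apart on it.

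With 1 array per condition there was no spread between animals, no standard error and no test. A difference is therefore given as the ratio of 2 signals, on the log2 scale or as a multiple, and calls were made at 2-fold, the threshold of the study's methods. Trimmed mean signals were about 500.1 on each array and median signals ran from 137 to 142. All 14 measured cardiomyocyte markers, of 17 listed, lay above the median signal, with TNNT2 (cardiac troponin T) between 22651 and 34844, and 7 of 7 measured fibroblast markers did so too. In tissue of mixed cells, fewer cells of a type and less RNA per cell cannot be told apart.

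Between the zones of the myoblast-treated tissue, FBN1 and BGN were more than 2-fold lower in the infarct zone, and LUM was lower by 1.85 times. Between the zones of control tissue 0 of the 12 probe sets differed by 2-fold, where 17.2% of all 24123 probe sets did. Bacterial control transcripts that are added to the RNA before labelling also differed between these arrays: the 21 probe sets for them above the median signal had a median log2 ratio of -1.13 between the myoblast zones and 0.52 between the control zones. Relative to control, the myoblast array was higher for 6 of the 8 genes in the border zone and lower for 6 of the 8 in the infarct zone, with the brightest probe set standing for each gene. Over all probe sets above the median signal, the median log2 ratios were 0.02 and 0.01 in these zones, so signs there were split almost evenly. By their brightest probe sets, COL5A2 and COL1A2 were higher with myoblasts in both zones, whereas COL3A1 and COL6A3 were lower in both, COL6A3 by little.

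**Figure D1:**
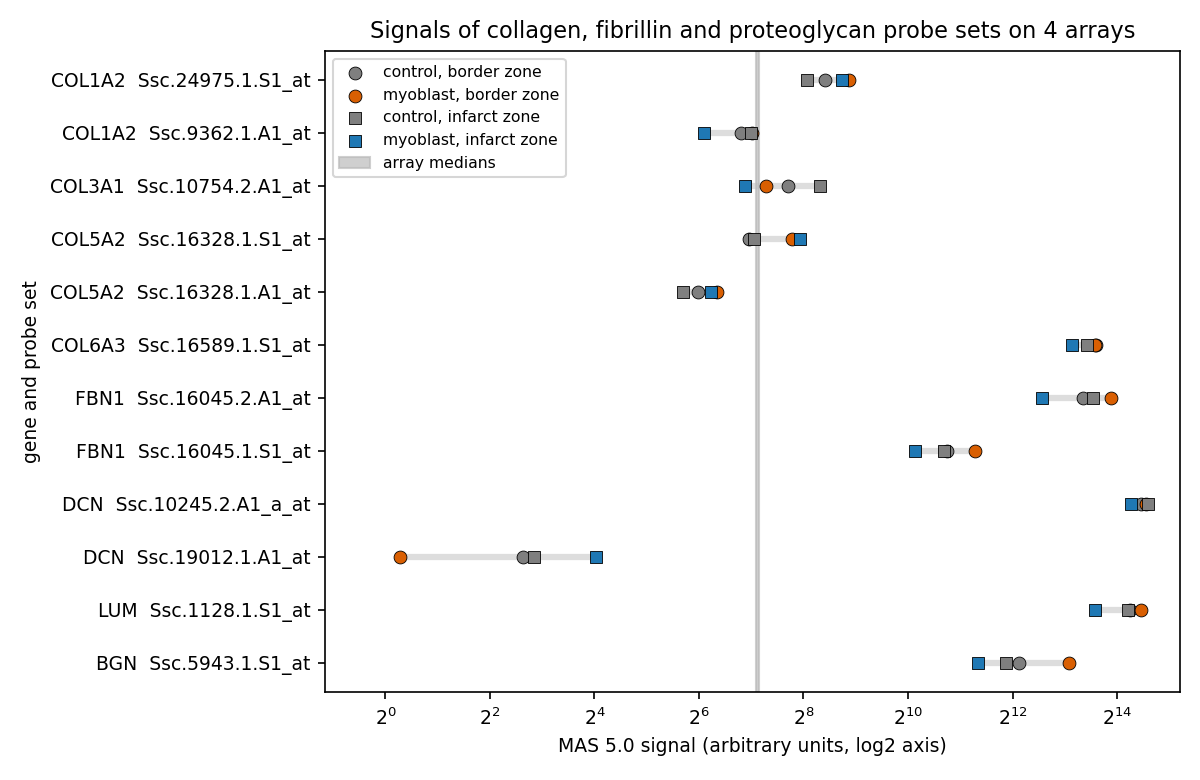
MAS 5.0 signal (arbitrary units, log2 axis) of each of the 12 probe sets on the 4 arrays, with circles for border zone, squares for infarct zone, and the grey line for the array medians of 137 to 142. The myoblast infarct array (blue square) is the lowest for both FBN1 probe sets, LUM and BGN, and their myoblast border array (orange circle) is the highest; signals of different probe sets are not to be compared with each other.

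Biglycan (BGN), a proteoglycan of scar and cartilage with chondroitin or dermatan sulphate chains, had the largest range between arrays among these genes by their brightest probe sets. Its signal was 8665 on the myoblast border array, 4456 on the control border array, 3738 on the control infarct array and 2604 on the myoblast infarct array. The myoblast arrays thus held both its highest and its lowest value, with the control arrays between them. With myoblasts the infarct zone was 3.33 times lower than the border zone, a log2 ratio of -1.73, against -0.25 in control tissue. Only 0.242% of the 11969 probe sets above the median signal had a zone ratio as low or lower in the myoblast tissue. Against control, BGN was 1.95 times as high in the border zone (log2 0.96) and 0.697 times as high in the infarct zone (log2 -0.52).

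Lumican (LUM), a keratan sulphate proteoglycan that spaces collagen fibrils, ran the same way over a smaller range. Its signal was 22643 on the myoblast border array, 19337 on the control border array, 18834 on the control infarct array and 12253 on the myoblast infarct array. The control zones were nearly level, at a log2 ratio of -0.04, and the myoblast infarct array stood below the other three. The log2 ratio of infarct over border zone with myoblasts was -0.89, a value that 2.56% of the probe sets above the median signal were at or below. Against control, the myoblast array was 1.17 times as high in the border zone and 0.651 times as high in the infarct zone.

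Decorin (DCN), a proteoglycan named for its decoration of collagen fibrils, was nearly flat by its bright probe set. That probe set read 24168 on the myoblast border array, 22421 on the control border array, 24567 on the control infarct array and 19665 on the myoblast infarct array. The myoblast infarct array was again the lowest, but all 4 log2 ratios of DCN lay between -0.32 and 0.13. A dim probe set of DCN read 1.2, 6.2, 7.1 and 16.4 in the same order of arrays. It crossed 2-fold in 3 of the 4 comparisons, in each of them with the opposite sign to the bright one. Among probe sets with a mean signal under 32, the SD of the log2 ratio over probe sets was 1.84 for the control arrays alone, so no direction is read from its ratios. DCN and LUM are next to each other in the pig genome, with 0 annotated genes between them in the Sscrofa11.1 annotation, and their bright probe sets had log2 zone ratios of -0.30 and -0.89 with myoblasts.

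Fibrillin 1 (FBN1), the main protein of microfibrils, was measured by 2 probe sets that gave like profiles. The brighter read 15070 on the myoblast border array, 10431 on the control border array, 11904 on the control infarct array and 6018 on the myoblast infarct array. The other read 2486, 1720, 1655 and 1130 in the same order. Both were highest on the myoblast border array and lowest on the myoblast infarct array, and the control zones were close. The infarct zone with myoblasts was 2.50 times lower than the border zone by the brighter probe set (log2 -1.32) and 2.20 times lower by the other (log2 -1.14), whereas the control zones gave 0.19 and -0.06. Against control, FBN1 was 1.45 times as high in the border zone by each of the probe sets, and 0.506 and 0.683 times as high in the infarct zone. The first of these infarct ratios, log2 -0.98, lay just short of 2-fold.

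COL6A3, the longest chain of collagen VI, varied little. Its signal was 12167 on the myoblast border array, 12413 on the control border array, 11024 on the control infarct array and 8989 on the myoblast infarct array. The border zone values were level (log2 ratio -0.03), and the myoblast infarct array was the lowest, at 0.815 times its control. The zone ratios were -0.17 in control tissue and -0.44 with myoblasts.

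**Figure D2:**
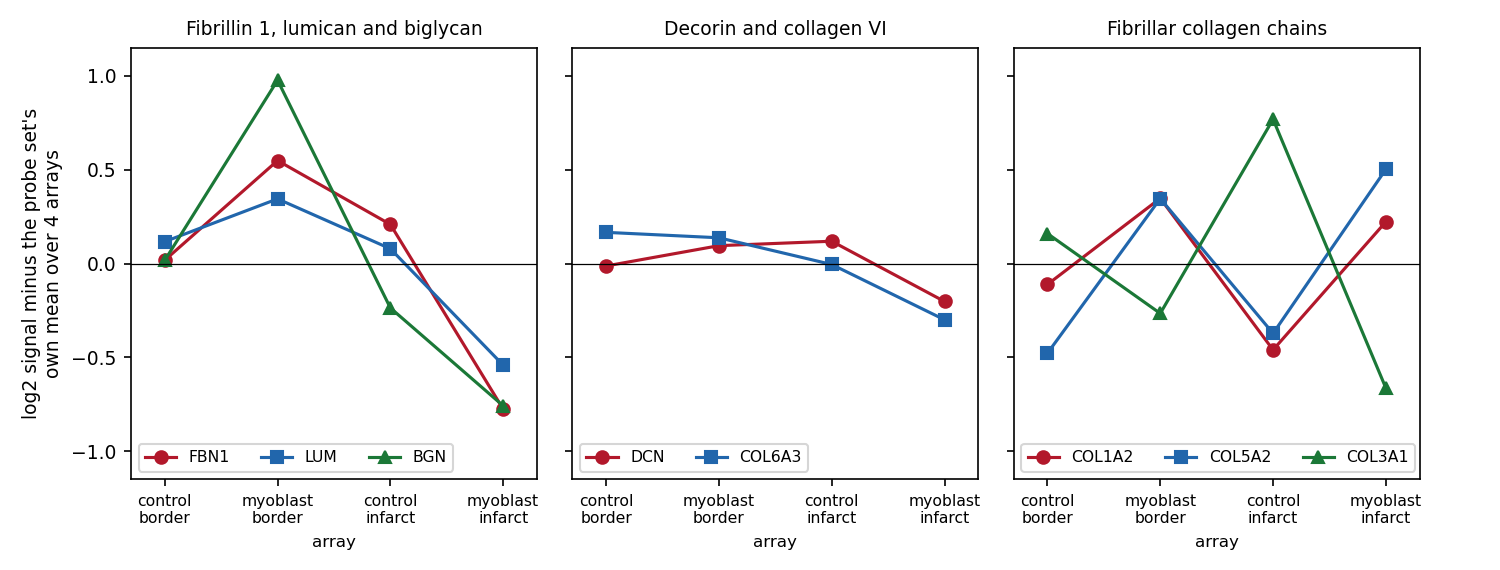
Log2 signal minus the probe set's own mean over the 4 arrays (y axis) for each array (x axis), 1 probe set of highest mean signal per gene; lines only join the points of a gene. FBN1, LUM and BGN peak on the myoblast border array and are lowest on the myoblast infarct array, DCN and COL6A3 stay within 0.30 of their mean, and the fibrillar chains COL1A2 and COL5A2 are high on both myoblast arrays while COL3A1 is high on the control infarct array.

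The fibrillar collagen chains had signals nearer the array medians, and their ratios are less precise. Among probe sets with a mean signal of 128 to 512, the SD of the log2 ratio between the control arrays was 0.35, against 0.18 for those above 2048, where COL6A3, DCN, LUM, BGN and the brighter FBN1 probe set lie. The other comparisons had larger SDs. They were 0.45 and 0.35 between the myoblast zones, and 0.53 and 0.43 for myoblast over control in each zone. These SDs are taken over probe sets and not over animals.

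COL1A2, the second chain type of collagen I, read 468 on the myoblast border array, 341 on the control border array, 268 on the control infarct array and 430 on the myoblast infarct array by its bright probe set. Both myoblast arrays were above both control arrays, by 1.37 times in the border zone and 1.61 times in the infarct zone. A dim probe set of COL1A2 read 129, 112, 127 and 68.8 in the same order and was lowest on the myoblast infarct array. In the infarct zone the bright and the dim probe set thus had log2 ratios of opposite sign, 0.68 and -0.89.

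COL5A2, a chain of collagen V, which is built into collagen I fibrils and limits their width, read 219 on the myoblast border array, 124 on the control border array, 133 on the control infarct array and 244 on the myoblast infarct array. The zones were level within each treatment, and the myoblast arrays were 1.77 and 1.83 times as high as their controls. Its dim probe set read 80.9, 63.2, 51.7 and 74.9 in the same order, which also put both myoblast arrays above both controls, by 1.28 and 1.45 times. None of these ratios reached 2-fold.

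COL3A1, the chain of collagen III, the fibrillar collagen of early scars and vessel walls, read 155 on the myoblast border array, 208 on the control border array, 318 on the control infarct array and 118 on the myoblast infarct array. The control infarct array was the highest, at 1.53 times the control border array, and the myoblast infarct array the lowest. In the infarct zone the myoblast array was 2.70 times lower than control, a log2 ratio of -1.43 that 0.543% of the probe sets above the median signal were at or below. In the border zone the log2 ratio was -0.43. The myoblast infarct value of 118 was under that array's median of 142. COL3A1 and COL5A2 lie side by side in the Sscrofa11.1 annotation with 0 genes between them, and their infarct zone log2 ratios were -1.43 and 0.87. Both probe sets read near the array medians, so unlike profiles of the transcripts themselves are not shown.

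Set against the whole array, the counts over the 12 probe sets were as follows. With myoblasts 4 of 12 differed between zones, where 18.0% of all probe sets did. Myoblast and control differed by 2-fold for 1 of 12 in the border zone, against 20.4%, and for 2 of 12 in the infarct zone, against 20.1%. These backgrounds are made largely of dim probe sets, so the counts were repeated for those whose mean log2 signal over the 4 arrays was above the mean of the array medians, a signal of 139.

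Of the 12 probe sets, 9 were above this level and covered all 8 genes. With myoblasts, 3 of the 9 were 2-fold lower in the infarct than in the border zone (both of FBN1 and that of BGN), where 1.78% of the 11969 probe sets were, and 0 were higher, where 0.827% were. At 1.5-fold the lower ones came to 4 of 9 with LUM added, against 6.78%. The median log2 ratio of the 8 genes was -0.42, with 7 of 8 below 0, against a median of 0.01 over all probe sets above this level. It was -0.89 without COL1A2, COL3A1 and COL5A2, the genes of lowest signal, an omission chosen after the values were seen. Between the control zones 0 of 9 were higher and 0 lower, where 0.201% and 0.451% were, so these counts are at the background, and the median of the 8 genes was 0.03 with 4 on each side of 0.

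**Figure D3:**
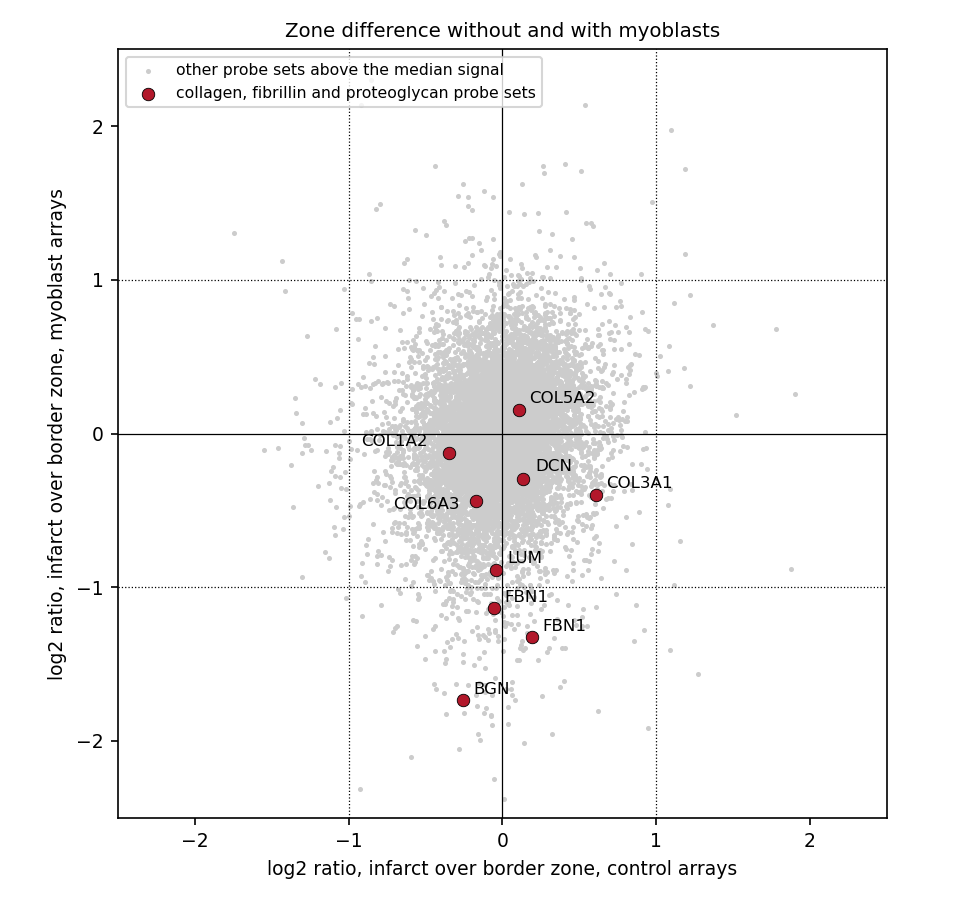
Log2 ratio of infarct over border zone on the control arrays (x axis) against the same ratio on the myoblast arrays (y axis), for the 9 probe sets above the median signal (red) and the other probe sets above it (grey), of which 14 of the 11969 lie outside the axes; dotted lines mark 2-fold. BGN and both FBN1 probe sets lie below the lower dotted line with x values between -0.25 and 0.19.

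In the border zone, 0 of the 9 were 2-fold higher with myoblasts than in control and 0 were lower, where 2.46% and 2.15% of the probe sets above this level were. At 1.5-fold 2 of 9 were higher, COL5A2 and BGN, against 8.77%. The median of the 8 genes was 0.34 on the log2 scale, from -0.43 for COL3A1 to 0.96 for BGN, against 0.02 over all. In the infarct zone 1 of 9 was 2-fold lower, COL3A1, against 1.83%, and 0 were higher, against 2.46%. At 1.5-fold 3 of 9 were lower there, COL3A1, the brighter FBN1 probe set and LUM, against 7.15%. The infarct median was -0.42, from -1.43 for COL3A1 to 0.87 for COL5A2, against 0.01 over all. Averaged over both zones, the median was -0.13, with 3 genes above 0 and 5 below, against a median of 0.02 over all.

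**Figure D4:**
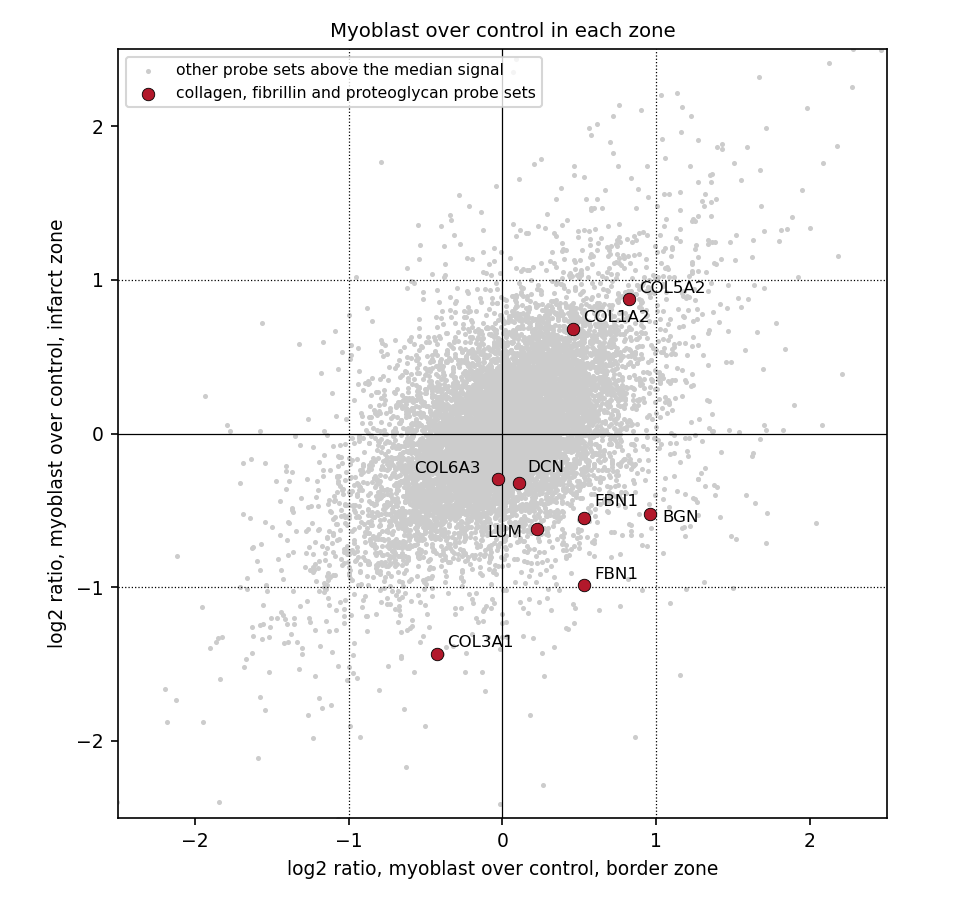
Log2 ratio of myoblast over control in the border zone (x axis) against that in the infarct zone (y axis), for the 9 probe sets above the median signal (red) and the other probe sets above it (grey), of which 45 of the 11969 lie outside the axes; dotted lines mark 2-fold. FBN1, LUM, BGN and DCN lie at the lower right, higher than control in the border zone and lower in the infarct zone, COL1A2 and COL5A2 at the upper right, and COL3A1 and COL6A3 at the lower left.

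The ratio of myoblast over control in the infarct zone was at least 2-fold below that in the border zone for 4 of the 9 probe sets, those of FBN1, BGN and COL3A1, where 2.30% of the probe sets above the median signal were. It was 2-fold above for 0 of 9, where 1.85% were. The log2 difference of these ratios, infarct minus border, was -1.51 and -1.08 for FBN1, -1.48 for BGN, -1.01 for COL3A1, -0.85 for LUM, -0.43 for DCN and -0.27 for COL6A3, and 0.05 and 0.22 for COL5A2 and COL1A2. The order with the myoblast border array highest and the myoblast infarct array lowest, which was singled out after the values were seen, was found for 4 of 9 probe sets of 3 genes, against 8.42% of all those above the median signal. Each ratio shares an array with the others, so the comparisons are not independent of each other.

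Other readings differed between the same arrays. GAPDH signal at the 3' end over that at the 5' end, which grows as RNA breaks down, was 1.73 on the myoblast border array and 1.38 on the myoblast infarct array, with 1.55 and 1.52 on the control border and infarct arrays, which is the order of LUM and BGN and, for the highest and the lowest array, of FBN1. The same ratio of actin (24.6, 19.5, 24.9 and 36.8 in that order of arrays) and of EF1A (3.01, 2.49, 4.17 and 4.13) had the myoblast infarct array lowest too, but not the myoblast border array highest. The bacterial poly-A controls had geometric mean signals of 581 and 265 on the myoblast border and infarct arrays and of 253 and 367 on the control border and infarct arrays. Their median log2 ratios over control were 1.25 (border zone) and -0.43 (infarct zone), and 16 of the 21 were 2-fold lower in the infarct than in the border zone with myoblasts, so they moved with BGN and FBN1 between the myoblast arrays. Hybridization controls, which are added later, had medians of -0.01 and -0.32 over control and of -0.07 between the myoblast zones. The 7 measured fibroblast markers, of 12 listed, summed to 52617 on the myoblast border array, 47869 and 49998 on the control border and infarct arrays, and 41702 on the myoblast infarct array, sums in which VIM (vimentin) weighs most, at 27169 and 25552 on the myoblast border and infarct arrays. The median log2 zone ratio of the 7 with myoblasts was -0.62, against -0.14 in control tissue, and 4 of the 7 were at least 1.5-fold lower. These were THY1 (a surface glycoprotein of fibroblasts and other cells) at -1.03, FAP (a protease of activated fibroblasts) at -0.77, S100A4 at -0.76 and SCARA5 at -0.62, while PDGFRB had -0.34, TCF21, a transcription factor of cardiac fibroblasts, -0.13 and VIM -0.09. Dimmer THY1 probe sets, also above the median signal, gave -0.66 with myoblasts against -0.03 in control tissue, and -0.65 against -0.66. The 7 measured macrophage markers, of 12 listed, of which 5 were above the median signal, summed to 7754 on the myoblast infarct array and to between 4280 and 4990 on the others. These sums take 1 probe set per gene. That of CD163 read 1053 and 1810 on the myoblast border and infarct arrays against 1330 and 1300 on the controls. A dimmer CD163 probe set, also above the median signal, read 251 and 415 against 1149 and 1314. The 14 cardiomyocyte markers summed to 267975 and 289032 on the myoblast border and infarct arrays and to 305711 and 350295 on the control ones. Of 11 measured skeletal muscle markers only TNNT1, slow skeletal troponin T, was above the median signal, at 11481 and 13056 on the myoblast border and infarct arrays against 5520 and 8196 on the controls. The part of these differences in the matrix values was not tested.

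Further matrix genes were taken from 6 lists of other collagen chains, other small leucine-rich proteoglycans, microfibril and elastic fibre proteins, collagen processing enzymes, basement membrane proteins and receptors. Of 115 genes listed, 35 were measured and 28 lay above the median signal. With myoblasts 3 of the 28 were 2-fold lower in the infarct than in the border zone and 0 were higher, against 1.78% and 0.827% of all probe sets above the median signal, and the median log2 zone ratio was -0.31. Between control zones 0 of 28 crossed 2-fold and the median was -0.04. Myoblast over control gave 2 higher and 0 lower in the border zone (against 2.46% and 2.15%, median 0.18), and 0 higher and 1 lower in the infarct zone (against 2.46% and 1.83%, median -0.11).

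**Figure D5:**
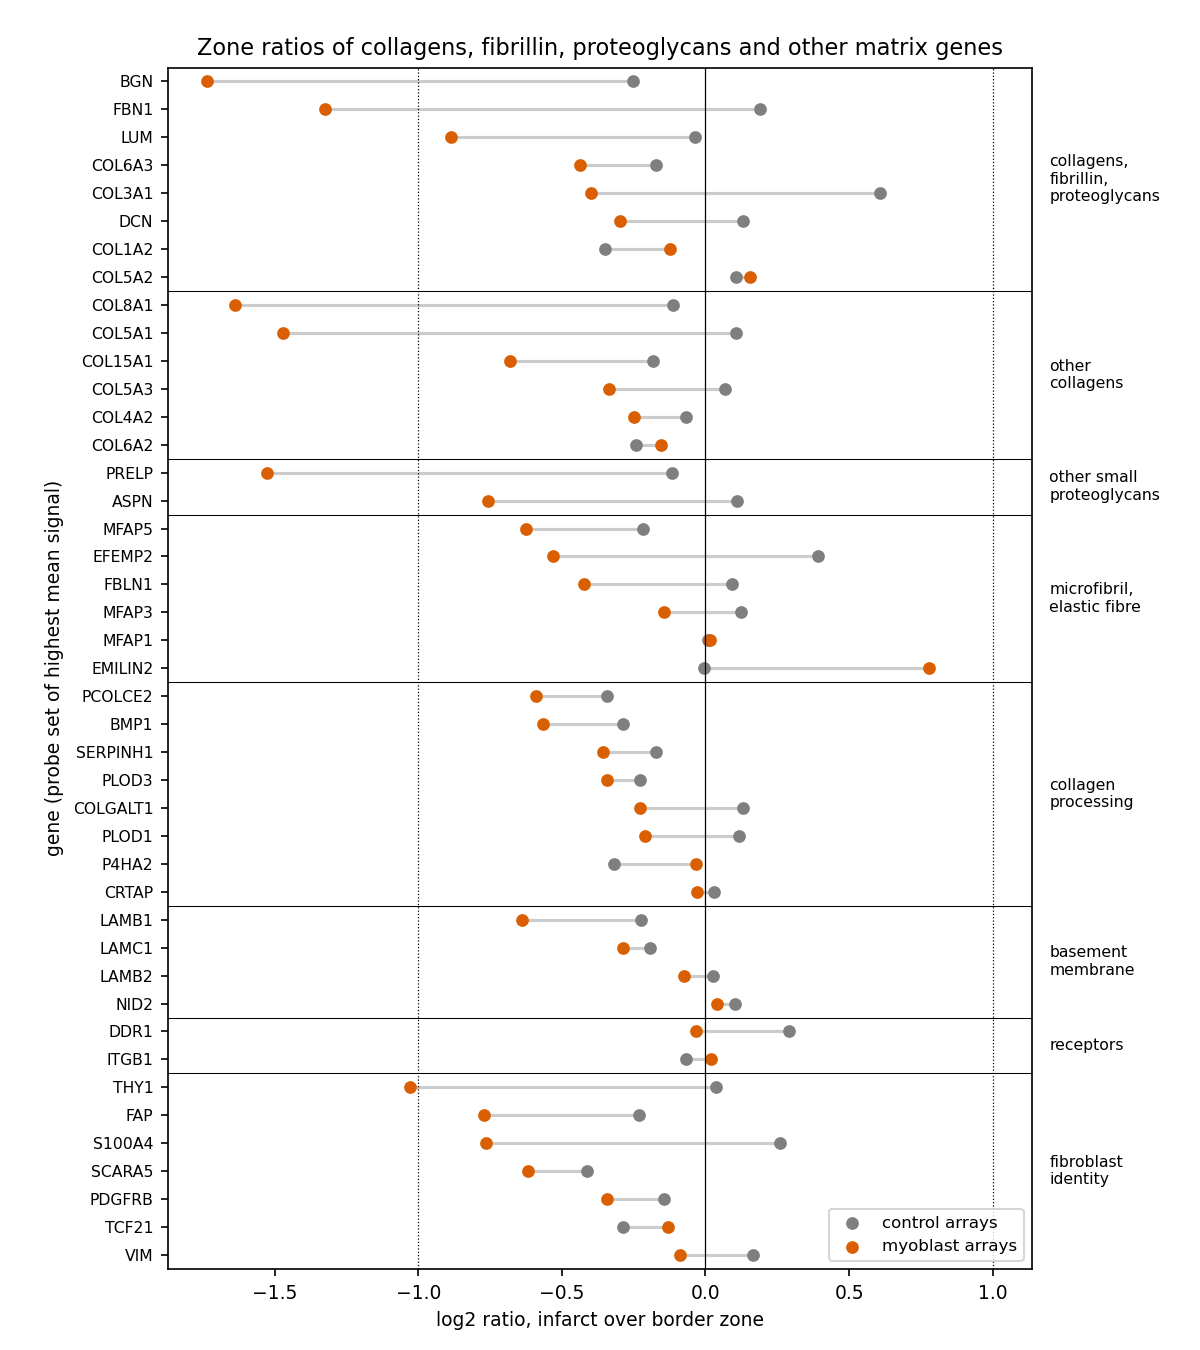
Log2 ratio of infarct over border zone (x axis) on the control arrays (grey) and the myoblast arrays (orange) for each gene above the median signal, by list; dotted lines mark 2-fold. BGN, FBN1, COL8A1, COL5A1, PRELP and THY1 lie beyond the lower line on the myoblast arrays, and no gene shown lies beyond either line on the control arrays.

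The 3 lower genes, by their brightest probe sets, were COL5A1, COL8A1 and PRELP. COL5A1, the chain that pairs with COL5A2 in collagen V, read 4509 on the myoblast border array, 2309 on the control border array, 2488 on the control infarct array and 1626 on the myoblast infarct array. Its log2 zone ratio with myoblasts was -1.47, against 0.16 for COL5A2, so these probe sets for chains of 1 trimer had unlike profiles. The COL5A2 probe set read 124 to 244, near the array medians, so unlike profiles of the transcripts themselves are not shown. COL8A1, a short-chain collagen of vessel walls, read 5057, 1743, 1613 and 1624 in the same order. It was 2.90 times as high as control in the border zone and level with it in the infarct zone. A dimmer COL8A1 probe set above the median signal read 217, 122, 129 and 136 in the same order. It was 1.78 times as high as control in the border zone. Its log2 zone ratio with myoblasts was -0.67, short of 2-fold. Those of the COL8A1 probe sets under the median signal were -1.51 and -1.24.

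PRELP, a small proteoglycan that anchors basement membranes to connective tissue, read 10490 on the myoblast border array, 5674 on the control border array, 5236 on the control infarct array and 3638 on the myoblast infarct array, a log2 zone ratio of -1.53 with myoblasts. ASPN (asporin), a close relative of decorin and biglycan, read 18168, 12834, 13851 and 10761 in the same order. Both were highest on the myoblast border array and lowest on the myoblast infarct array, as BGN and LUM were, and ASPN, at a zone ratio of -0.76 with myoblasts, stayed short of 2-fold.

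Among partners of fibrillin, FBLN1 (fibulin 1, a microfibril-associated glycoprotein) was 2.06 times as high as control in the border zone, at 3451 against 1674, and 1.45 times as high in the infarct zone. MFAP5, a microfibril glycoprotein that binds fibrillin, read 4076 and 2641 on the myoblast border and infarct arrays against 6418 and 5516 on the controls. Its infarct log2 ratio was -1.06, so FBN1, FBLN1 and MFAP5 did not share a profile. EMILIN2, an elastic fibre-associated glycoprotein, had its highest value on the myoblast infarct array, at 1674 against 977 to 985 on the others.

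COL6A2, another chain of collagen VI, had log2 ratios between -0.24 and -0.10 in the 4 comparisons, so it too varied little. COL15A1, a basement membrane zone collagen, read 4318 on the myoblast border array, 5166 on the control border array, 4553 on the control infarct array and 2694 on the myoblast infarct array. None of the 8 collagen processing enzymes above the median signal crossed 2-fold in any comparison. Of all probe sets above the median signal, 0.201% to 2.46% did so in a given comparison and direction, so this count is at the background. SERPINH1, the collagen chaperone HSP47, had log2 ratios of 0.36 and 0.17 over control in the border and infarct zone, and PCOLCE2, which speeds removal of the procollagen tail, 0.47 and 0.23. The basement membrane genes LAMB1, LAMB2, LAMC1 and NID2 and the receptors ITGB1 and DDR1 did not reach 2-fold either, which is likewise at the background.

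The genes nearest to the mean profile of the 8 genes, by Euclidean distance of centred log2 signals over the 4 arrays among 5935 probe sets, were PI4K2A, a lipid kinase (0.0386), ANAPC2, a subunit of the anaphase-promoting complex (0.0428), SNX14, a sorting nexin (0.0435), RSRP1 (0.0715) and KDELR2, a receptor that returns proteins to the endoplasmic reticulum (0.0866). DCN and COL6A3 stood at 0.270 and 0.256 from the same mean, LUM at 0.272, FBN1 at 0.553, COL1A2 at 0.723, BGN at 0.834, COL5A2 at 1.01 and COL3A1 at 1.03. The 5 genes are near by how they were chosen, and all these distances rest on 4 arrays.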

How the data were processed

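RNA of heart tissue was hybridised by the authors to Affymetrix Porcine Genome Arrays, which were scanned with a GeneChip Scanner 3000, normalized with MAS 5.0 and analysed in Gene Spring Software 11.0, per the study's methods. The deposited values are log2 signals made by the authors with MAS 5.0, an algorithm that corrects for background and sets all arrays to the same trimmed mean. No column was left out and no further normalization was applied. Gene symbols came from the annotation of the array platform: 10099 probe sets carry a single symbol, 198 several and 13826 none.

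Log2 signals were subtracted between arrays of 1 zone (myoblast minus control) or 1 treatment (infarct minus border). Calls were made at 2-fold with no test, since each group has 1 array, and the counting was tested on simulated data. For medians over genes, the brightest probe set (by mean log2 signal) stood for a gene. The genes, lists and rules were chosen with earlier results of these data known. Named are all the genes of the main list with every probe set, the 5 genes nearest to their mean profile, and up to 2 genes each way per further list, by the mean log2 ratio of myoblast over control over both zones, among those above the median signal. COL5A2 against COL5A1, SERPINH1, TNNT2, markers beyond that rule and the spiked-in control transcripts were singled out after their values were seen. Alternatives were quantile normalization, array medians set equal, low signals raised to the 25th percentile or to the median of their array, only bright probe sets, 1 probe set per gene, all probe sets of a gene averaged, and a threshold of 1.5-fold. Python 3.11.15, numpy 2.4.6, pandas 2.3.3 and matplotlib 3.10.9 were used. No sequence was used, and depth on an array is limited by signal over background: the SD of the log2 ratio between the control arrays fell from 1.84 under 32 units to 0.18 above 2048 units. Between the myoblast zones it fell from 1.77 to 0.35, and for myoblast over control from 1.84 to 0.43 in each zone.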

Additional observations from a re-analysis of the deposited data

Results flagged for a closer look

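Several genes had ratios of myoblast over control on opposite sides of 1 in the zones, and with 1 array per condition these differences between zones were not tested. Such a sign change was seen for 7 of the 12 probe sets, for 32.6% of the probe sets above the median signal and for 39.5% of all probe sets. In log2 units, infarct minus border, the difference was -1.51 and -1.08 for the FBN1 probe sets, -1.48 for BGN, -0.85 for LUM, -0.43 for the bright probe set of DCN and -1.08 for the dim one of COL1A2. The dim probe set of DCN, with signals up to 16.4, had a difference of 3.56. Among further genes it was -1.58 for COL5A1, -1.41 for PRELP, -0.87 for ASPN, 0.78 for EMILIN2, -0.094 for LAMC1 and -1.07 for THY1, each by its brightest probe set. By the same choice it was -1.02 for S100A4 and 0.81 for CD163, and other listed genes such as EFEMP2 (-0.93) changed sign too. The dimmer CD163 probe set had no sign change, with a difference of 0.53. Dimmer THY1 probe sets above the median signal had no sign change, with differences of -0.63 and 0.0098. The ratios of LAMC1 were 0.07 and -0.02 on the log2 scale, so its sign change covers a small difference. Dimmer LAMC1 probe sets above the median signal had differences of 0.22, -0.032 and -0.24, and only the last came with a sign change. The genes named for their likeness to the mean profile share the pattern by how they were chosen and were not counted.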

How the results depend on the processing

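A count was taken as unchanged within 1.5 times and a log2 value within 0.58. With dim probe sets floored at the 25th percentile or at the array median, with only those above the median signal, or with 1 probe set per gene, the counts of 1 lower in the border zone, 1 higher in the infarct zone and 1 higher between the myoblast zones each became 0, as the dim DCN probe set dropped out. Quantile normalization gave 1 higher in the border zone in place of 0, and centring on array medians gave 2 lower in the infarct zone in place of 1. At 1.5-fold the counts were 2 higher in the border zone, 3 higher and 4 lower in the infarct zone, 1 higher between the control zones and 5 lower between the myoblast zones. The 3 probe sets 2-fold lower between the myoblast zones stayed at 3 under the scalings, floors and signal limit. The median over the 8 genes ran from 0.28 to 0.37 (border), -0.47 to -0.31 (infarct), -0.08 to 0.05 (control zones, on both sides of 0) and -0.48 to -0.37 (myoblast zones). Without COL1A2, COL3A1 and COL5A2, an alternative chosen after seeing the data, the median was 0.23, -0.52, -0.04 and -0.89 in that order. With all probe sets of a gene averaged, DCN turned to -1.12 and 0.44 over control in the border and infarct zone and 1.73 between the myoblast zones, and COL1A2 to -0.10 in the infarct zone. Labels give no replicate numbers, the zones were not used as replicates of a treatment and no additive fit of zone and treatment was run, and leaving out an array leaves no comparison within its zone.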

Other observations

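FBN1, LUM and BGN had like profiles, and the 10 genes nearest to the mean profile of these 3 were looked up after their values were seen. PMEPA1, a membrane protein that restrains TGF-β signalling, was the nearest at a distance of 0.00619 on the log2 scale. It read 3257 on the myoblast border array, 2179 on the control border array, 2135 on the control infarct array and 1310 on the myoblast infarct array. TGFB3, a TGF-β ligand, stood at 0.133 and read 2073, 1369, 1233 and 753 in the same order, and VCAN (versican), a large proteoglycan, stood at 0.197 and read 3955, 2696, 2257 and 1415. IGFBP6, an IGF-binding protein, C1QTNF5, CRISPLD2 and a dimmer probe set of COL5A1 were also among the 10 nearest, as were RANBP3, GSTA4 and CPNE1. All of them are highest on the myoblast border array and lowest on the myoblast infarct array by how they were chosen, so their number supports nothing further.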
